A study of Mus musculus with 6 samples.

Results

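Flat culture in FNHCS medium is the middle condition of a series that profiled mouse lung alveolar organoid cells by RNA-seq in 3 culture conditions, and it makes up 2 of the 6 libraries. The members were the 2 libraries labelled as flat (2D) with FNHCS medium, and they were set against the mean of the other 2 conditions, each weighted equally, over all genes, to find genes that peak or dip there and do not lie between the ends. The first end, 3D FNHCS, is the control and was kept in drops of matrigel with FNHCS medium. The other end, 2D FBS, was grown flat in a medium based on Ad-DMEM F/12 that held 10% FBS (fetal bovine serum). Cells of every condition carry the genotype Sftpc-eGFP, were expanded in FNHCS medium in 90% matrigel drops until treatment, spent 7 days in their condition at ambient oxygen pressure, and were dissociated with TrypLE before polyA RNA was sequenced. Sample titles mark 3D FNHCS as type II, 2D FNHCS as AT2 and AT1, and 2D FBS as type I. The cell lines SN3593 and SN3595 gave 1 library each to every condition, so each group has 2 libraries. Apart from their names, no label tells whether the lines stem from different animals, and p-values measure the spread between these libraries, part of which may be technical. Cells with and without eGFP are named in the design text of the series. The sources used here do not say whether cells were sorted on eGFP before sequencing or how the reporter is built.

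Alveolar type 2 (AT2) cells are the cuboidal epithelial cells that make, store and recycle surfactant in lamellar bodies, which are organelles related to the lysosome. They divide and give rise to alveolar type 1 (AT1) cells, which are thin and cover most of the gas exchange surface. Cells that take up much glucose break it down by glycolysis, and many enzymes of that pathway are among the best known targets of hypoxia-inducible factor (HIF), a transcription factor that is degraded when oxygen is plentiful. Lactate dehydrogenase is a tetramer of A and B chains, of which the A chain favours making lactate from pyruvate and the B chain favours the return reaction.

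Lung epithelial markers were present in all 6 libraries, with AT2 genes low in 2D FBS. Levels are given throughout as CPM, counts scaled to a fixed library total, on the TMM scale, for SN3593 first and SN3595 second. Sftpc, the AT2 surfactant protein that names the reporter, was at 33500 and 41000 CPM in 3D FNHCS, 51400 and 41000 CPM in 2D FNHCS, and 438 and 264 CPM in 2D FBS. The epithelial gene Epcam lay between 287 and 691 CPM. The 2D FNHCS libraries differed from each other in AT1 genes: Cav1, which builds the caveolae of AT1 cells, was at 1.27 CPM in SN3593 and 62.3 in SN3595, Hopx at 208 and 1070, Pdpn at 0.207 and 4.36, and the mesothelial marker Msln at 6.91 and 307. Several defining markers of other cell types stayed below 1 CPM in all libraries, with maxima of 0.563 CPM for Col1a1 of fibroblasts, 0.828 for Ptprc of leukocytes, 0.227 for Pecam1 of endothelium, 0.42 for Krt5 of basal cells and 0.774 for Foxj1 of ciliated cells, and the intestinal factor Cdx2 was at 0 throughout. Others were higher: the mesothelial Msln reached 551 and 2140 CPM in 2D FBS, the macrophage gene Cd68 20.5 and 19.7 in 3D FNHCS, the club cell gene Scgb1a1 6.85 in 2D FNHCS SN3595, and the gut gene Lgals4 4.2 in 3D FNHCS SN3593. In 2D FNHCS the marker lists of other cell types summed to 1.29 and 1.43 CPM for endothelium, 258 and 339 for fibroblasts, 85.8 and 167 for leukocytes, 281 and 514 for airway cells, 7.22 and 307 for mesothelium and 1530 and 3830 for the gut. The ends ranged over 0.879 to 2.07, 247 to 324, 18 to 1800, 321 to 829, 4.98 to 2140 and 396 to 5010 in that order, and the part of such cells in the results was not tested. Total expected counts ranged from 33634368 to 43334665, so that 3 counts correspond to 0.0692 to 0.0892 CPM of these totals, before TMM scaling.

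Most genes that separate the ends lay between them in flat FNHCS culture. Of 14416 genes tested, 5836 were called different between 2D FBS and 3D FNHCS, and for 4913 of these, 84.2%, the fitted level in 2D FNHCS was between the ends, while 412 lay above both and 511 below both. Over all genes tested, 7895 lay between, 3624 above both and 2897 below both. A gene is called where edgeR's quasi-likelihood test across all 6 libraries gave a Benjamini-Hochberg adjusted p below 0.05. Against the mean of the ends, 142 genes (0.985%) were called higher in 2D FNHCS and 135 (0.936%) lower, and 2938 genes had an unadjusted p below 0.05. With the library size alone as the scale, the split was 511 higher and 147 lower, and that scale moved the median log2 difference of all genes from 0.03 to 0.25.

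A call against the mean does not place a gene beyond both ends, so peaks and dips were defined more narrowly. A peak is called higher against the mean and also against each end, and a dip is called lower in all 3. This left 54 peaks, 0.375% of the genes tested, and 78 dips, 0.541%. The height of a peak or depth of a dip is the smaller of its 2 absolute log2 fold changes, which is the distance to the nearer end. Peaks were 0.64 to 4.92 high with a median of 1.38, and dips 0.65 to 6.86 deep with a median of 1.69. The lowest peak was the galactosylceramidase gene Galc, and the shallowest dip was the gene of the HMG-box protein Bbx. The fold from the nearer end was at least 2 for 41 peaks and 67 dips. In 39 of the 54 peaks and 39 of the 78 dips the ends were not themselves called different. The single comparisons behind these counts called 1244 genes (8.63%) higher and 1408 (9.77%) lower against 3D FNHCS, and 688 (4.77%) higher and 843 (5.85%) lower against 2D FBS. Both 2D FNHCS libraries lay above all 4 others for 1152 genes (7.99%) and below all 4 for 1156 (8.02%). That separation held for all 54 peaks and all 78 dips, and it was required of the highest peaks and deepest dips named. It is therefore no added support for a single gene.

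The 3 counts depend on the fit and on every library. Where a library is left out, the calls of single genes given below are those against the mean. A peak or dip needs each end as well and can be lost where that call held, as for Id1, Aldoc, Robo1 and Abca1. With the cell line as a replicate block, 953 genes were called against the mean, with 172 peaks and 189 dips, among them all 54 and all 78 of the fit without it. With 1 library left out, 78 genes with 11 peaks and 26 dips were called without 2D FNHCS SN3593, and 135 with 39 and 46 without 2D FNHCS SN3595. The counts were 28 genes with 5 peaks and 17 dips without 3D FNHCS SN3593, 17 with 5 and 10 without 3D FNHCS SN3595, 16 with 3 and 4 without 2D FBS SN3593, and 47 with 6 and 26 without 2D FBS SN3595. The call against the mean held in all 6 of these fits for 3 peaks and 7 dips and in none of them for 30 peaks and 36 dips.

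**Figure D1:**
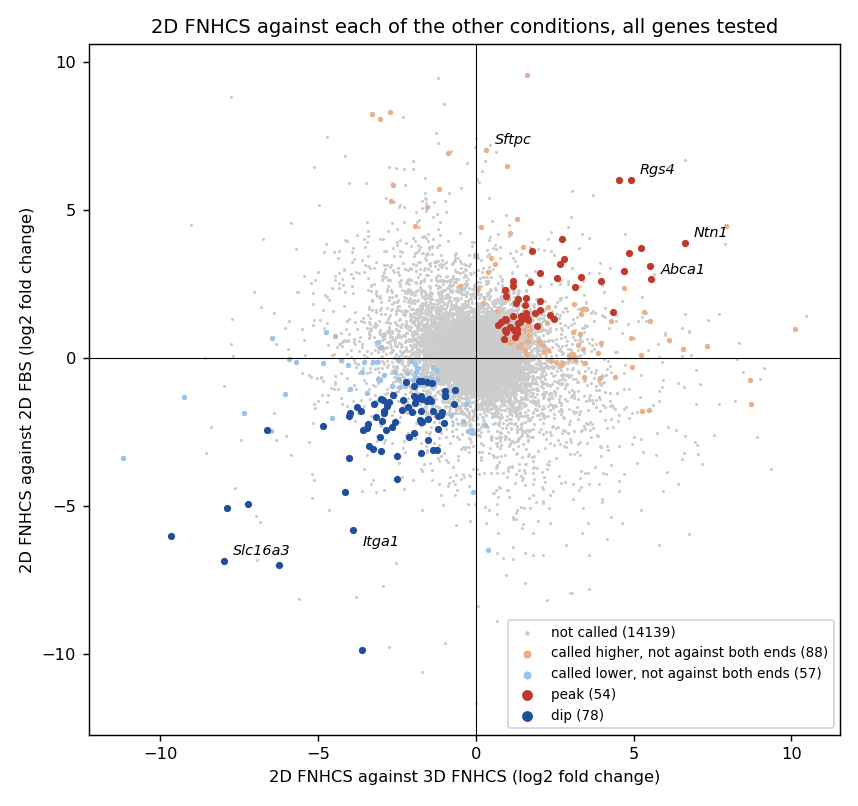
Each point is 1 of 14416 genes, with its log2 fold change in 2D FNHCS against 3D FNHCS on the horizontal axis and against 2D FBS on the vertical axis. The 54 peaks lie in the upper right corner and the 78 dips in the lower left, while Sftpc sits near 0 on the horizontal axis and at 7.04 on the vertical one.

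Glycolysis genes and genes known to be induced by HIF gave more dips than any other list. Of 40 genes tested on a list of hypoxia and glycolysis genes, 22 were called lower in 2D FNHCS than the mean of the ends, beside 0.936% of all genes. Dips were 19 of these, beside 0.541% of all genes. None of the list was called higher by edgeR, DESeq2 or limma-voom. An unadjusted p below 0.05 was found for 33 of the 40, beside 2938 of all 14416 genes. The median log2 difference from the mean of the ends was -1.91 over the list and 0.03 over all genes tested. Both 2D FNHCS libraries lay below all 4 others for 27 of the 40, or 67.5%, beside 8.02% of all genes. The list makes up 19 of the 78 dips and none of the peaks. In bulk libraries, fewer cells with a transcript and less of it per cell cannot be told apart. Leaving out 1 library reduced the 19 dips to 8 without 3D FNHCS SN3593, 5 without 3D FNHCS SN3595, 7 without 2D FNHCS SN3593, 8 without 2D FNHCS SN3595, 2 without 2D FBS SN3593 and 8 without 2D FBS SN3595. The list's median stayed between -2.13 and -1.85 in those fits.

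Slc16a3 was the deepest dip. It encodes the monocarboxylate transporter MCT4, which exports lactate, and it was at 150 and 319 CPM in 3D FNHCS, 137 and 77.8 in 2D FBS, and 0.906 and 0.939 in 2D FNHCS. The 2D FNHCS libraries were level with each other and far below the other 4. Its log2 difference was -7.99 ± 0.57 (SE) against 3D FNHCS, with an adjusted p of 0.00293, and -6.86 ± 0.55 against 2D FBS, with an adjusted p of 0.00613. Bsg, the chaperone that carries such transporters to the cell surface, is on no list and was chosen after its values were seen. It was at 6502 and 6862 CPM in 3D FNHCS, 1365 and 1354 CPM in 2D FNHCS, and 3806 and 3540 CPM in 2D FBS, and it was a dip. At the entry to the pathway, the glucose transporter Slc2a1 (GLUT1) was at 224 and 367 CPM in 3D FNHCS, 29.0 and 33.1 CPM in 2D FNHCS, and 301 and 223 CPM in 2D FBS. Its ends overlapped, and 2D FNHCS was lower than their mean by a log2 difference of -3.17 ± 0.30 (adjusted p = 0.0188). The call against the mean of Slc16a3 held in all 6 fits with a library left out, that of Slc2a1 was lost without 2D FNHCS SN3593 or 2D FBS SN3593, with an adjusted p of up to 0.0589, and that of Bsg was lost in all 6 (up to 0.0994).

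Enzymes of the upper pathway dipped at 2 of the steps that commit or split the sugar. The phosphofructokinase chain Pfkl, part of the committed step, was at 644 and 850 CPM in 3D FNHCS, 110 and 128 CPM in 2D FNHCS, and 653 and 549 CPM in 2D FBS, a log2 difference from the mean of the ends of -2.50 ± 0.23 (adjusted p = 0.0188). The other chain, Pfkp, was also a dip, at -2.39 ± 0.24. Aldolase splits the product, and its A form Aldoa fell from 3485 and 3681 CPM in 3D FNHCS to 635 and 568 in 2D FNHCS, beside 2928 and 2525 in 2D FBS. The C form Aldoc was at 67.4 and 97.5, 2.12 and 3.59, and 12.2 and 16.2 CPM in the same order. For Aldoc the ends differed as well, with 2D FBS lower than 3D FNHCS by a log2 difference of -2.54 (adjusted p = 0.00275), and 2D FNHCS lay below both. Phosphoglucose isomerase, Gpi1, was called lower than the mean but not against 2D FBS, where the log2 difference was -0.74 ± 0.21 (adjusted p = 0.0752), so it was no dip. The hexokinases Hk1 and Hk2, which trap glucose in the cell, were not called, with log2 differences from the mean of -0.78 ± 0.27 and -1.38 ± 0.26 (adjusted p = 0.181 and 0.0585). For both, the 2D FNHCS libraries lay below all 4 others. Hk2 was called lower against 3D FNHCS (adjusted p = 0.0103) but not against 2D FBS (adjusted p = 0.15). The call of Pfkl was lost without 3D FNHCS SN3595, 2D FNHCS SN3593 or 2D FBS SN3593 (up to 0.0584), that of Aldoc without 3D FNHCS SN3595 or 2D FBS SN3593 (up to 0.0557), that of Pfkp in all fits but the one without 3D FNHCS SN3593 (up to 0.0582), and those of Aldoa and Gpi1 in all 6 (up to 0.065 and 0.0761).

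The lower part of the pathway held further dips. Triosephosphate isomerase, Tpi1, was at 1434 and 1783 CPM in 3D FNHCS, 326 and 314 CPM in 2D FNHCS, and 1104 and 1063 CPM in 2D FBS. Gapdh, often used as a reference gene, was at 11200 and 12390, 1675 and 1714, and 5593 and 4854 CPM in that order. Both 2D FNHCS libraries were thus within a narrow range and below every library of the ends. Phosphoglycerate kinase, Pgk1, a step that yields ATP, was at 1590 and 1752 CPM in 3D FNHCS, 138 and 172 CPM in 2D FNHCS, and 862 and 755 CPM in 2D FBS, a log2 difference from the mean of -2.91 ± 0.23 (adjusted p = 0.0101). Pgam1, the mutase of the next step, differed by -1.93 ± 0.24 (adjusted p = 0.0242). Enolase Eno1 and pyruvate kinase, listed under its older symbol Pkm2, missed the threshold at adjusted p values of 0.0559 and 0.0516, with log2 differences of -1.47 ± 0.27 and -1.49 ± 0.26, although their 2D FNHCS libraries lay below all 4 others. Gapdh, Pgk1 and Ldha have processed pseudogenes, and expected counts divide reads among such copies by a model, so single values carry that uncertainty. The call of Pgk1 was lost without 2D FBS SN3593 (adjusted p = 0.0557), and those of Tpi1, Gapdh and Pgam1 were lost in all 6 fits with a library left out (up to 0.0736, 0.0898 and 0.0885).

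At the fate of pyruvate, the A and B chains of lactate dehydrogenase moved in opposite directions. Ldha was at 3563 and 4867 CPM in 3D FNHCS, 482 and 602 CPM in 2D FNHCS, and 2564 and 2210 CPM in 2D FBS, a log2 difference from the mean of the ends of -2.55 ± 0.28 (adjusted p = 0.0213). Ldhb was at 59.9 and 66.0 CPM in 3D FNHCS, 244 and 174 CPM in 2D FNHCS, and 35.9 and 34.5 CPM in 2D FBS, a log2 difference of 2.15 ± 0.17 (adjusted p = 0.0104). Ldha was therefore a dip and Ldhb a peak, with no overlap between 2D FNHCS and the other libraries for either, as for every dip and peak. Pdk1, a kinase that switches off pyruvate dehydrogenase, was at 216 and 273 CPM in 3D FNHCS, 23.3 and 23.0 CPM in 2D FNHCS, and 108 and 108 CPM in 2D FBS. Its log2 difference from the mean was -2.81 ± 0.18 (adjusted p = 0.00617), and the call held in all 6 fits with a library left out. The call of Ldha was lost in all 6 (up to 0.0788), and that of Ldhb without 3D FNHCS SN3593, 3D FNHCS SN3595 or 2D FBS SN3593 (up to 0.0582).

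HIF targets outside the pathway followed it in part. Bnip3, which marks mitochondria for removal, was at 1497 and 1701 CPM in 3D FNHCS, 128 and 131 CPM in 2D FNHCS, and 497 and 398 CPM in 2D FBS. Ero1l, an oxidase of the endoplasmic reticulum, was at 747 and 1073, 133 and 72.8, and 415 and 403 CPM. The collagen prolyl hydroxylase P4ha1 was at 391.5 and 407, 130 and 147, and 542 and 629 CPM, and the related P4ha2 was a dip too. Across the list's 19 dips, 2D FBS was called lower than 3D FNHCS for 8 and higher for 0, and the ends were not called different for 11. Egln1, an oxygen sensor that targets HIF for degradation, was a dip, while its relative Egln3 was at 404 and 543 CPM in 3D FNHCS, 1.19 and 0.375 CPM in 2D FNHCS, and 3.13 and 0.785 CPM in 2D FBS, and was not called against 2D FBS (adjusted p = 0.289). Vegfa, the vascular growth factor, and Adm, a vasodilator peptide, were not called against the mean (adjusted p = 0.408 and 0.117). Hif1a itself, chosen after its values were seen, was at 394 and 394 CPM in 3D FNHCS, 382 and 281 CPM in 2D FNHCS, and 210 and 243 CPM in 2D FBS, and was not called either (adjusted p = 0.683). The call of Bnip3 was lost without 2D FBS SN3593 (adjusted p = 0.0557), and those of Ero1l and P4ha1 in all fits but the ones without 2D FNHCS SN3593 and without 2D FNHCS SN3595, respectively (up to 0.0859 and 0.067). The call of Egln3 held only without 2D FBS SN3595 (up to 0.0852 otherwise), and those of P4ha2 and Egln1 were lost in all 6 (up to 0.141 and 0.0799).

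**Figure D2:**
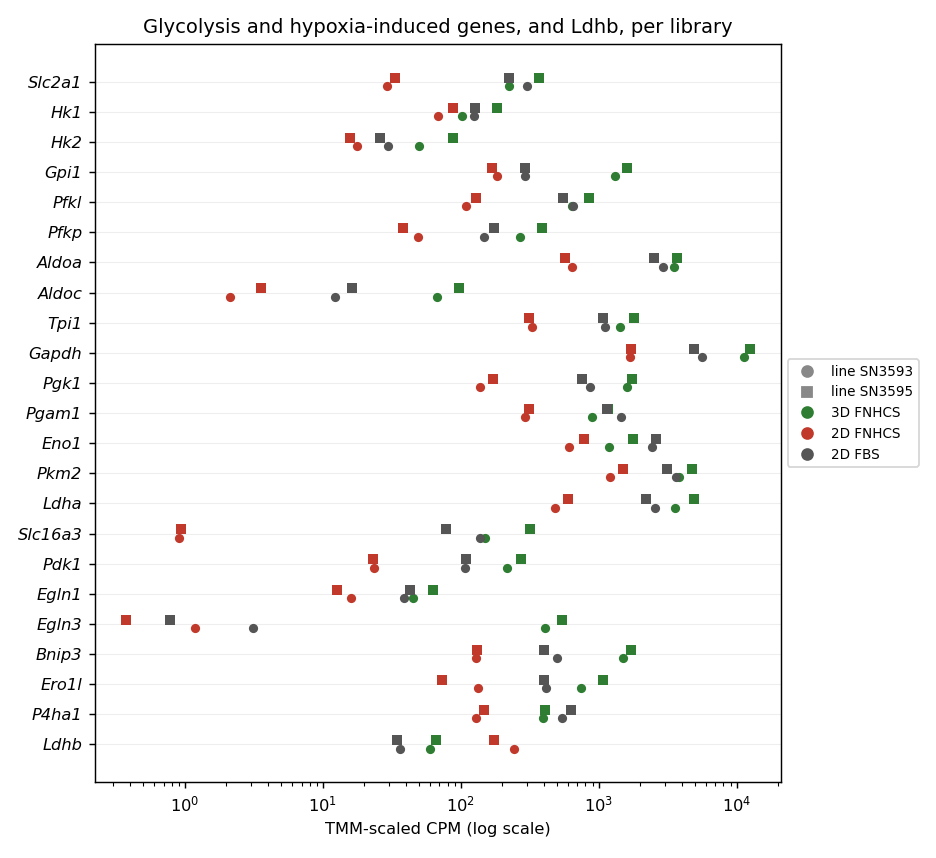
TMM-scaled CPM on a log axis for glycolysis and hypoxia-induced genes in every library, with Ldhb in the last row; colours mark the conditions and symbols the lines. The 2D FNHCS libraries are lowest for most genes, as for Slc16a3 at 0.906 and 0.939 CPM, whereas for Ldhb they are highest at 244 and 174 CPM.

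The promoters of 4 of these genes are shown, the dips Slc16a3, Pgk1 and Ldha and the peak Ldhb. The dips come from the hypoxia and glycolysis list, where several members moved together. The dip Pdk1 moved with them but its windows are not shown, so the windows shown are no fair sample of the list's dips. ACGTG is among the core sequences that HIF is known to bind. Other forms of that core were not searched, so a window without ACGTG may still hold one. Each window is RefSeq sequence of the build GRCm38.p6, from 250 bases before to 50 after a listed transcript start, and matches to ACGTG on either strand are in capitals (CACGT where the match is on the other strand).
Slc16a3: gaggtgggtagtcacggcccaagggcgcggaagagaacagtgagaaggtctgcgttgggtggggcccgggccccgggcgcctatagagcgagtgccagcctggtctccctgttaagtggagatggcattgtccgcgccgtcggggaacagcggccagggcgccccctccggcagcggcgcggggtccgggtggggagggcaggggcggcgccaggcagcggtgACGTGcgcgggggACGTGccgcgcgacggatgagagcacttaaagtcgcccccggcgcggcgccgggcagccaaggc
Pgk1: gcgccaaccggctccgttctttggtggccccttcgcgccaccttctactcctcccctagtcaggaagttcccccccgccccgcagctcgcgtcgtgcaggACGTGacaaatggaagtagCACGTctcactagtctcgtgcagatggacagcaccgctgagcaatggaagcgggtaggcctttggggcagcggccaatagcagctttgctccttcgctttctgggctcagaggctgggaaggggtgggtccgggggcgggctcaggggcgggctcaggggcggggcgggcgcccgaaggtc
Ldha: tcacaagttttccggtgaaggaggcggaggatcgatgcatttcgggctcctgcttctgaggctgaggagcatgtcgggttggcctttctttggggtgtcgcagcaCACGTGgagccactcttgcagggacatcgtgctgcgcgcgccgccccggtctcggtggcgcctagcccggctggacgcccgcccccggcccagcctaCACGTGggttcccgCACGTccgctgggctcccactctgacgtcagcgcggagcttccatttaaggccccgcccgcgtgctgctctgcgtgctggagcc
Ldhb: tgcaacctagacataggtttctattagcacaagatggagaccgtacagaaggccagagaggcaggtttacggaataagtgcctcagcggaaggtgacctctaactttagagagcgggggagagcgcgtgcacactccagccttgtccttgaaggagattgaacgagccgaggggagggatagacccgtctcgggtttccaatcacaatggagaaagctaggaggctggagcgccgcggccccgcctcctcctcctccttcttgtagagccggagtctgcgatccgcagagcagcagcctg
The windows are Slc16a3 at chr11:120948817-120949116 on the plus strand, Pgk1 at chrX:106186850-106187149 on the plus strand, Ldha at chr7:46845554-46845853 on the plus strand and Ldhb at chr6:142507908-142508207 on the minus strand. The Slc16a3 window held 2 matches and the Pgk1 window 2. The Ldha window held 5, of which 4 are the overlapping pairs of 2 E-boxes (CACGTG), a palindrome that other factors bind, and the Ldhb window held 0. A second window listed for Ldha, not shown, held 0. Both windows listed for the dip Pdk1, not shown, held 0 as well. Of 14452 windows of the 11402 genes tested that had one, 24.5% held ACGTG, beside 23.9% of 46 windows of peaks, 45.6% of 79 windows of dips and 66.7% of 24 windows of the 19 dips on the hypoxia and glycolysis list. The share was 52.8% of 53 windows of that whole list and 48.3% of 29 windows of the lysosome list, whose called genes were higher in 2D FNHCS. Among 55 windows of the other dips the share was 36.4%. TGATGNAA, an element of the amino acid stress factor ATF4, was in 2.4% of all windows, 0 of the 46 windows of peaks and 2 of the 79 of dips. A match describes the letters of a window and is no evidence that a factor binds there.

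No gene on a list of the citric acid cycle and oxidative phosphorylation passed the threshold, although a larger share of the list lay below both ends than of all genes. Of the list's 59 genes, edgeR called 0 against the mean of the ends, beside 0.985% of all genes called higher and 0.936% lower. An unadjusted p below 0.05 was found for 6, beside 2938 of all 14416 genes. DESeq2 called 3, all lower, and limma-voom 0. Their median log2 difference was -0.19, which was 0.03 on the scale of library size alone, where that of all genes was 0.25. Both 2D FNHCS libraries lay below all 4 others for 12 of them, 20.3%, beside 8.02% of all genes, and the fitted level was below both ends for 31 of the 59, 52.5%, beside 20.1% of all genes. The 48 cytosolic ribosomal protein genes had a median of -0.33 (-0.11 with library size alone), edgeR called 0, 4 had an unadjusted p below 0.05, DESeq2 called 1 and limma-voom 0. For 46 of the 48, or 95.8%, the fitted 2D FNHCS level was between the ends. The share was 54.8% of all genes and 84.2% of those called different between the ends.

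Among BMP targets, Id1 and Id3 were dips. The Id genes encode inhibitors of helix-loop-helix transcription factors and are direct targets of BMP signalling. Id1 was at 140 and 135 CPM in 3D FNHCS, 9.42 and 7.77 CPM in 2D FNHCS, and 34.5 and 27.4 CPM in 2D FBS, a log2 difference from the mean of -2.92 ± 0.19 (adjusted p = 0.00617). Id3 was at 86.8 and 74.4, 13 and 6.59, and 69.6 and 55.6 CPM in that order. Both were lowest in flat FNHCS culture without overlap, as all 78 dips were, and for Id3 the ends were not called different (adjusted p = 0.406). Id2 differed in pattern: at 974 and 939, 48.1 and 45.6, and 8.19 and 7.92 CPM it lay between the ends and was not called against their mean (adjusted p = 0.0522). On the BMP list of 14 genes tested, 2 were called lower, both dips, and 1 higher, namely Fst, the activin antagonist follistatin. The shares over all genes were 0.936% lower and 0.985% higher. The call of Id1 against the mean held in all 6 fits with a library left out, but Id1 was no dip without 2D FBS SN3593. The call of Id3 was lost without either 3D FNHCS or either 2D FBS library. That of Fst was lost in all fits but the one without 2D FNHCS SN3595.

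Dusp5, a phosphatase that ERK signalling induces against itself, was at 32.1 and 50.2 CPM in 3D FNHCS, 3.11 and 3.83 CPM in 2D FNHCS, and 24.5 and 13.1 CPM in 2D FBS. It was the sole call among 23 FGF and MAPK feedback genes, where 0.936% of all genes were called lower. Nr4a1, an orphan nuclear receptor of the immediate early class, was at 134 and 120, 35.9 and 39.5, and 97.5 and 86.9 CPM in that order. The immediate early list of 26 genes had 4 calls, all lower, with a median of -0.70, beside 0.936% of all genes called lower. Nr4a1 was its dip, and Fosb, Socs3 and Zfp36 were not called against 2D FBS. The summed level of that list was 14400 and 11700 CPM in 3D FNHCS, 6580 and 6770 CPM in 2D FNHCS, and 9980 and 10400 CPM in 2D FBS. Such genes respond to handling and dissociation within minutes, and the part of handling in these values was not tested. The block raised the 4 calls of that list to 7 lower and 1 higher, and leaving out 1 library reduced them to between 0 and 2. The calls of Dusp5 and Nr4a1 held only without 2D FBS SN3595 and without 2D FNHCS SN3595, respectively (up to 0.0884 and 0.067 otherwise).

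Other deep dips are not on the hypoxia and glycolysis list, which need not hold every HIF target. Bst1, an ectoenzyme related to CD38 that acts on NAD, was at 41.1 and 23.2 CPM in 3D FNHCS, 0.104 and 0.727 CPM in 2D FNHCS, and 74.8 and 35.2 CPM in 2D FBS. Cyp1b1, a cytochrome P450 that oxidises steroids and foreign compounds, was at 34.6 and 61.5, 3.91 and 1.53, and 64.4 and 61.3 CPM. Itga1, the integrin chain that binds collagen as a partner of the beta 1 chain, was at 16.8 and 23.3, 1.79 and 0.939, and 119 and 32.6 CPM. In all 3 genes 2D FBS was the higher end by mean, but the ends were called different for Itga1 alone (adjusted p = 0.049). The adjusted p between the ends was 0.358 for Bst1 and 0.523 for Cyp1b1. The 2D FBS libraries of Itga1 were far apart. Ak4, a mitochondrial adenylate kinase, was at 97.6 and 157, 10.9 and 5.00, and 87.2 and 80.0 CPM. Akr1b8, an aldo-keto reductase, had a log2 difference from the mean of -1.54 ± 0.17, and Pycr1, an enzyme of proline synthesis, had -1.57 ± 0.26. Those were the dips on the NRF2 list (30 tested, 2 lower, median -0.60) and on the ATF4 list (37 tested, 1 lower, median -0.10, which is 0.13 with library size alone). The share called lower over all genes was 0.936%. The block raised the NRF2 list to 5 lower, and DESeq2 to 12. Calls of Cyp1b1 and Ak4 were lost without 3D FNHCS SN3595, 2D FBS SN3593 or 2D FBS SN3595 (up to 0.0679), those of Bst1 and Itga1 held only without 2D FNHCS SN3595 and without 2D FBS SN3595, respectively (up to 0.0973 otherwise), and those of Akr1b8 and Pycr1 were lost in all 6 fits (up to 0.138).

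**Figure D3:**
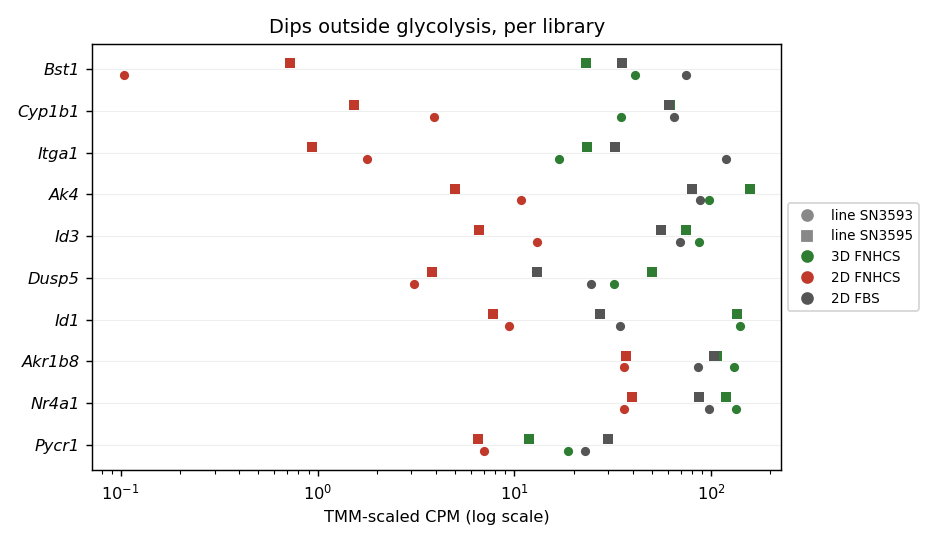
TMM-scaled CPM on a log axis for named dips outside glycolysis in every library, with colours for the conditions and symbols for the lines. Every 2D FNHCS library lies left of the other 4, which holds for all 78 dips, for example Id1 at 9.42 and 7.77 CPM.

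The highest named peaks included a signalling regulator and guidance genes. Rgs4, which speeds the shut-off of G proteins, was at 7.00 and 12.0 CPM in 3D FNHCS, 380 and 195 CPM in 2D FNHCS, and 4.17 and 4.71 CPM in 2D FBS, a log2 difference of 4.92 ± 0.45 against 3D FNHCS and 6.02 ± 0.47 against 2D FBS (adjusted p = 0.0044 and 0.00613). Ntn1, the secreted guidance cue netrin-1, was at 0.403 and 0.312, 30.2 and 41.0, and 1.72 and 3.04 CPM, with 2D FBS called above 3D FNHCS (adjusted p = 0.00385) and 2D FNHCS above both. Robo1, the receptor of the guidance cue Slit, was at 3.40 and 3.89, 38.6 and 26.5, and 8.42 and 3.87 CPM. All 3 stood clear of the other libraries in both lines, as did all 54 peaks. Rgs4 and Ntn1 kept the call against the mean in all 6 fits with a library left out. Robo1 lost it without 3D FNHCS SN3593, 3D FNHCS SN3595 or 2D FNHCS SN3593 (up to 0.0752).

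Further peaks concern membrane lipid, glycans, matrix and the cytoskeleton. Abca1, which exports cholesterol to apolipoproteins, was at 0.317 and 0.255 CPM in 3D FNHCS, 17.9 and 9.48 CPM in 2D FNHCS, and 2.62 and 1.72 CPM in 2D FBS. It was the sole call among 26 genes of cholesterol synthesis and uptake, whose median was -0.38, where 0.985% of all genes were called higher. St6galnac2, a sialyltransferase of O-linked glycans, was at 2.33 and 1.33, 68.3 and 38.9, and 4.60 and 4.48 CPM. Bmp1, the protease that trims procollagens, was at 482 and 793, 1810 and 2010, and 528 and 419 CPM. Each rose above both ends, Bmp1 by a log2 difference of 1.58 ± 0.31 from the nearer one. Slain1, which promotes microtubule growth, was at 22.6 and 23.5, 121 and 66.4, and 11.6 and 14.1 CPM. Myo5c, a class V myosin of secretory cells, was at 35.5 and 53.2, 195 and 261, and 67.2 and 99.3 CPM. Dnm3, a dynamin that cuts membrane vesicles, and Snn, a small membrane protein, had log2 differences from the mean of 1.55 ± 0.23 and 1.84 ± 0.23. St6galnac2 lost the call without 2D FBS SN3593 (0.0557), Abca1 without 3D FNHCS SN3593, 3D FNHCS SN3595 or 2D FBS SN3593 (up to 0.0617), Slain1 without either 3D FNHCS or either 2D FBS library (up to 0.0657), Snn in all fits but the one without 2D FNHCS SN3593 (up to 0.0927), and Bmp1, Myo5c and Dnm3 in all 6 (up to 0.116).

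Tfcp2l1, a grainyhead-related transcription factor of epithelia and stem cells, was at 20.8 and 21.9 CPM in 3D FNHCS, 73.0 and 60.0 CPM in 2D FNHCS, and 28.0 and 23.9 CPM in 2D FBS, a log2 difference from the mean of 1.498 ± 0.147 (adjusted p = 0.0188). It was the peak on a list of 32 lineage transcription factors, of which 2 were called higher and 1 lower, beside 0.985% and 0.936% of all genes. Trp53inp1, a p53 target, was at 49.2 and 59.8, 128 and 140, and 66.9 and 70.9 CPM. It was the sole call among 26 p53 targets, whose median was 0.095 (0.03 over all genes), where 0.985% of all genes were called higher. Sesn3, a sestrin that restrains growth signalling, was at 10.7 and 9.90, 38.1 and 22.2, and 9.63 and 7.65 CPM. None of these peaks overlapped another condition, which was true of all 54 peaks. The call of Tfcp2l1 held only without 2D FNHCS SN3595 (up to 0.0617 otherwise), as did that of Sesn3 (up to 0.106), and that of Trp53inp1 was lost in all 6 fits (up to 0.115).

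**Figure D4:**
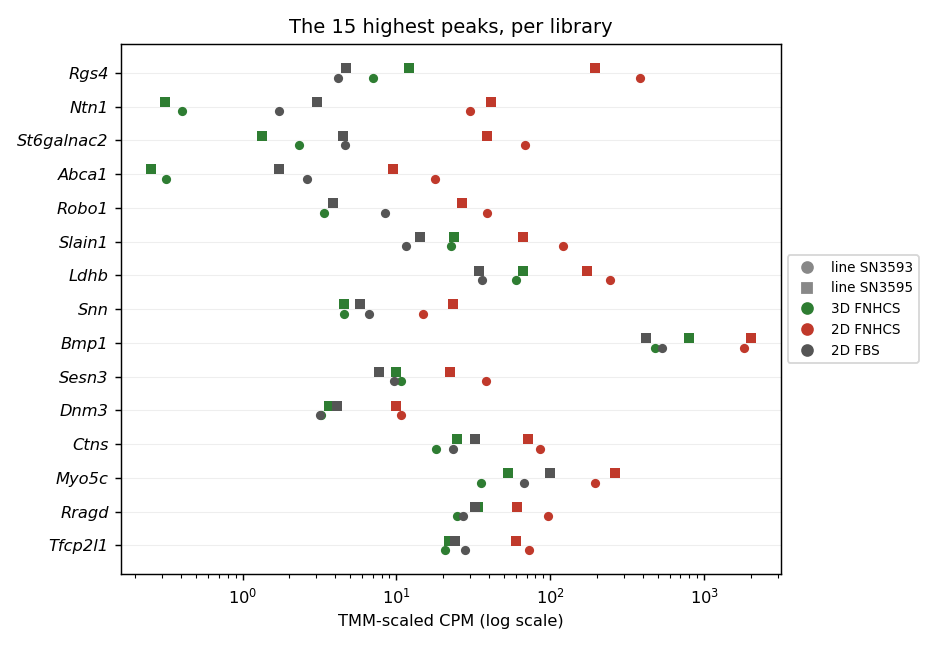
TMM-scaled CPM on a log axis for the 15 highest peaks with at least 10 CPM in 2D FNHCS, in every library, with colours for the conditions and symbols for the lines. Every 2D FNHCS library lies right of the other 4, which holds for all 54 peaks, for example Rgs4 at 380 and 195 CPM.

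Some genes of the lysosome rose in flat FNHCS culture. Of 35 lysosomal genes tested, 5 were called higher than the mean of the ends, beside 0.985% of all genes, and 2 of these were peaks. None was called lower by edgeR, DESeq2 or limma-voom. An unadjusted p below 0.05 was found for 19, beside 2938 of all 14416 genes. The list's median log2 difference was 0.66, beside 0.03 for all genes, and the fitted level lay above both ends for 25 of the 35, 71.4%, beside 25.1% of all genes. Both 2D FNHCS libraries were above all 4 others for 13 of them, 37.1%, beside 7.99%. The list's peaks were Npc1, which carries cholesterol out of the lysosome, at 27.6 and 23.2 CPM in 3D FNHCS, 47.3 and 51.8 CPM in 2D FNHCS, and 21.2 and 19.7 CPM in 2D FBS, and Mcoln1, a calcium channel of its membrane, at 58.0 and 72.6, 179 and 143, and 90.6 and 90.2 CPM. Their log2 differences from the mean were 1.12 ± 0.14 and 1.07 ± 0.17 (adjusted p = 0.0242 and 0.039). Against 2D FBS the adjusted p was 0.0139 for Npc1 and 0.0499 for Mcoln1, so Mcoln1 was a peak only just inside the threshold. The other 3 called genes, the carboxypeptidase Ctsa, progranulin (Grn) and the protease Ctsf, were not called against 2D FBS, with log2 differences of 0.93 ± 0.25, 0.77 ± 0.23 and 0.27 ± 0.22. Tfeb, a transcription factor that drives lysosomal genes, was at 20.1 and 17.4, 16.1 and 19.1, and 22.0 and 19.4 CPM and was not called (adjusted p = 0.614).

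A pair of the highest peaks also acts at the lysosome. Ctns, which exports cystine from it, was at 18.2 and 24.9 CPM in 3D FNHCS, 85.0 and 71.5 CPM in 2D FNHCS, and 23.2 and 32.2 CPM in 2D FBS, with a log2 difference from the mean of 1.68 ± 0.20 (adjusted p = 0.0242). Rragd, a small GTPase that brings the growth kinase complex mTORC1 to its surface, was at 24.8 and 33.9, 96.9 and 60.9, and 26.9 and 32.6 CPM, with a log2 difference of 1.42 ± 0.23 (adjusted p = 0.046). Their 2D FNHCS libraries stood clear of all others, as in all 54 peaks. With the block the list had 10 genes called higher and 4 peaks, with DESeq2 13 and 7, and with library size alone 11 and 7. With 1 library left out, 2 genes of the list with 1 peak were called without 2D FNHCS SN3595 and 0 without any other library. The calls of Npc1, Mcoln1 and Ctns were lost in all 6 such fits (up to 0.142), and that of Rragd in all but the one without 2D FNHCS SN3595 (up to 0.149).

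**Figure D5:**
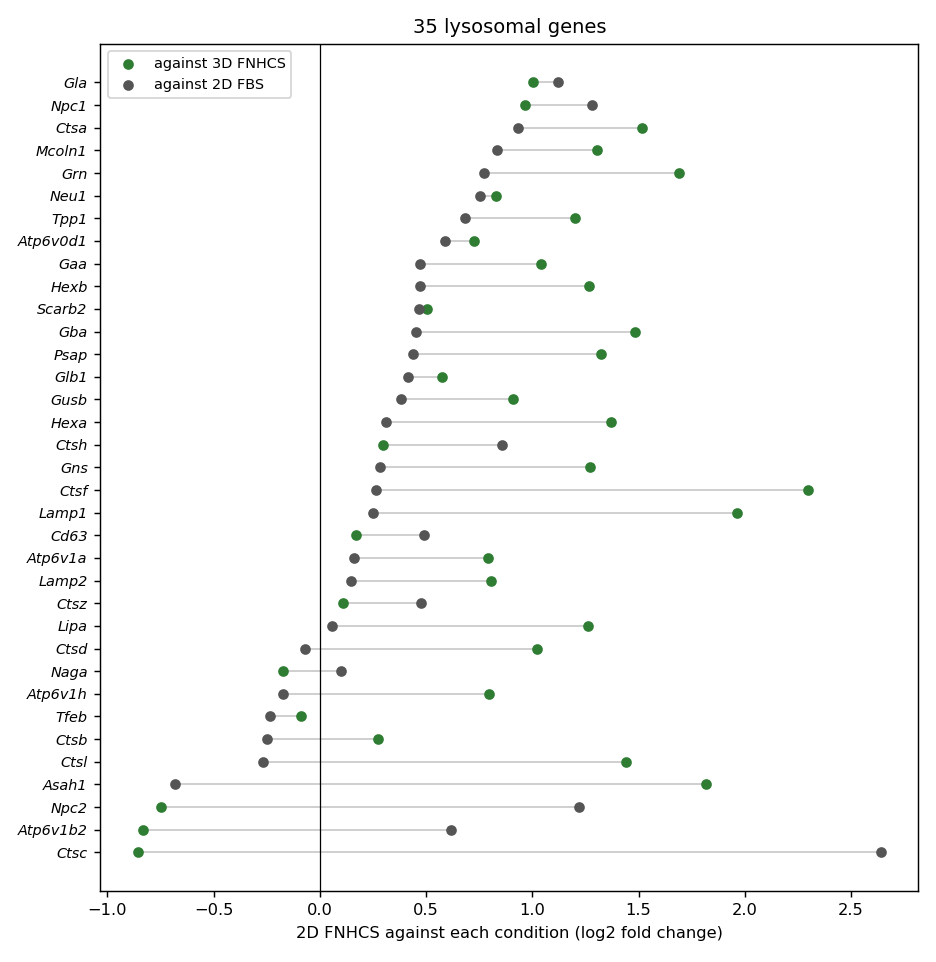
Log2 fold change of 35 lysosomal genes in 2D FNHCS against 3D FNHCS (green) and against 2D FBS (grey), ordered by the smaller of the pair. For 25 genes both points lie right of 0, and Npc1 and Mcoln1 are the peaks.

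Surfactant and AT2 genes were called against the mean without being peaks. Of 30 AT2 markers, 6 were called higher, beside 0.985% of all genes, and 0 were peaks or dips. For 24, or 80.0%, the fitted level lay between the ends. The share was 54.8% of all genes and 84.2% of those called different between the ends. Sftpc was higher than the mean by a log2 difference of 3.68 ± 0.36 (adjusted p = 0.0188), through 7.04 ± 0.55 against 2D FBS, and 0.31 ± 0.42 against 3D FNHCS (adjusted p = 0.626). Its call was lost without either 3D FNHCS or either 2D FBS library (up to 0.065). Sftpb, Sftpa1 and Lamp3, genes of surfactant and the lamellar body, lay between, for example Sftpa1 at 8126 and 14090 CPM in 3D FNHCS, 950 and 1337 CPM in 2D FNHCS, and 4.43 and 3.14 CPM in 2D FBS. Lgi3, a secreted protein, was at 1002 and 1325, 1955 and 2683, and 25.8 and 25.5 CPM, so both 2D FNHCS libraries were highest, but it was not called against 3D FNHCS (adjusted p = 0.0518). The block raised the AT2 count to 9 higher and 4 lower with 1 peak and 1 dip, DESeq2 to 13 higher and 4 lower, and leaving out 1 library gave between 0 and 5 higher.

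Nearly all AT1 markers lay between the ends. Of 30 tested, edgeR called 0 against the mean, beside 0.985% of all genes called higher and 0.936% lower. DESeq2 called 6 higher and limma-voom 0. An unadjusted p below 0.05 was found for 8, beside 2938 of all 14416 genes. For 28, or 93.3%, the fitted 2D FNHCS level was between the ends. The share was 54.8% of all genes and 84.2% of those called different between the ends. Ager, the AT1 receptor for glycated proteins, was at 326 and 243 CPM in 3D FNHCS, 2083 and 4785 CPM in 2D FNHCS, and 7535 and 10120 CPM in 2D FBS, and was called against 3D FNHCS (log2 difference 3.59 ± 0.50, adjusted p = 0.00993) but not against 2D FBS (-1.36 ± 0.46, adjusted p = 0.113). Hopx, an AT1 transcriptional regulator, and Pdpn, the AT1 surface protein podoplanin, were not called against the mean (-0.31 ± 0.66 and 1.05 ± 1.2), and their 2D FNHCS libraries differed widely, as given above. Nkx2-1, the lung lineage transcription factor, was at 131 and 194, 83.4 and 166, and 80.8 and 83.4 CPM and was not called (0.11 ± 0.31, adjusted p = 0.865).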

How the data were processed

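RNA was purified with RNeasy columns and made into libraries with NEB Ultra II, per the labels' protocols. The authors deposited expected counts per gene, which are model estimates and can be fractions. Per the submitters' processing notes, Bowtie 1.2.3 and RSEM 1.3.1 were used with the build mm9. The sources used here give no annotation, options or strand setting, and reads of overlapping or antisense genes can therefore be mixed. The table had 23224 genes, some under older symbols (Ero1l, Pkm2), and 25 symbols turned into dates are not named.

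Counts were rounded to whole numbers and tested with edgeR 4.0.16 in R 4.3.3 (TMM scaling, its default filter, which kept 14416 genes, quasi-likelihood test, Benjamini-Hochberg adjustment over all genes, threshold 0.05, two-sided). The fit covered all 6 libraries, with a term per condition and 3 residual degrees of freedom, and 2D FNHCS was set against the mean of the other coefficients and against each. The SE is approximate: the size of the log2 fold change over the root of the test's F statistic. Libraries of a condition differed by far more than sampling noise (chi-square per degree of freedom 105 to 129) and were kept apart. Same-numbered libraries share a cell line, and their deviations from the group means correlated at 0.422, 0.245 and 0.379, so the line was used as a replicate block in an alternative fit. Floors cover counting error only.

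Named genes are the 15 highest peaks and 15 deepest dips with at least 10 CPM in 2D FNHCS (peaks) or the lower end (dips), no overlap of libraries and no predicted name, 5 identity genes (Sftpc, Ager, Hopx, Pdpn, Nkx2-1), and up to 3 peaks and 3 dips of each of 45 gene lists. Other list members are given with their calls, and 1 gene that meets the rule is not reported here. The lists held 1281 entries, of which 1276 had a row and 1106 were tested. The members and lists were chosen with earlier results of these data known. Alternatives were other scalings, no filter, the block, DESeq2 1.42.0, limma-voom 3.58.1, stricter thresholds and leaving out each library, and the procedure was tested on simulated data.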

Additional observations from a re-analysis of the deposited data

How the results depend on the processing

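Each count is given in the order of genes called against the mean, peaks and dips, which were 277, 54 and 78. RLE size factors gave 303, 54 and 87, upper-quartile factors 321, 74 and 72, and limma-voom 227, 50 and 73. Larger changes came with library size alone (658, 177 and 71), no filter on low counts (460, 55 and 103), the replicate block (953, 172 and 189) and DESeq2 (1650, 177 and 241). A distance of at least 2-fold from the nearer end left 41 peaks and 67 dips, and a threshold of 0.01 left 4 and 5. Leaving out 1 library gave 16 to 135, 3 to 39 and 4 to 46, where a group then rests on 1 library that is assumed to vary like the others. The cause of these differences was not tested, except that fits with a library left out have fewer samples and the stricter thresholds keep fewer genes by construction. The block changed no call of a named peak or dip. Signs turned for uncalled identity genes only: with 1 library left out, Hopx ranged from -1.95 to 0.441 (0.032 without 3D FNHCS replicate 1), Nkx2-1 from -0.506 to 0.528 (-0.034 without 3D FNHCS replicate 1) and Pdpn from -2.432 to 2.524. With 3 residual degrees of freedom, genes that miss the threshold are not shown to be level, and 3 counts per library limit low genes.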

Other observations

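The genes below, apart from Plaur, are on no list, and all were chosen after their values were seen. Further dips handle glucose or glycogen. Pygl, the liver form of glycogen phosphorylase, was at 39.4 and 37.1 CPM in 3D FNHCS, 4.79 and 3.38 CPM in 2D FNHCS, and 14.4 and 9.39 CPM in 2D FBS. Fbp2, a fructose bisphosphatase, was at 25.1 and 26.1, 7.17 and 5.54, and 22.5 and 23.0 CPM, and Slc37a4, the transporter of glucose 6-phosphate, at 42.2 and 49.9, 10.3 and 13.4, and 22.3 and 23.1. All were lowest in both 2D FNHCS libraries, as every dip was. Arrdc4 and Txnip are arrestin-like genes induced by glucose, and their patterns were not alike: Arrdc4 was a dip at 86.0 and 102, 6.01 and 7.70, and 20.5 and 23.3 CPM, while Txnip, at 1281 and 1045, 39.1 and 48.1, and 25.7 and 21.8 CPM, was called lower than the mean of the ends but not against 2D FBS (adjusted p = 0.0611). The call of Arrdc4 against the mean held in all 6 fits with a library left out. Those of Pygl, Fbp2, Slc37a4 and Txnip were each lost in at least 4 of them, with adjusted p values of up to 0.0625, 0.0617, 0.0895 and 0.0788.

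A pair of peaks belongs to planar cell polarity, the system that orients cells within a sheet. Celsr1 was at 41.9 and 31.0 CPM in 3D FNHCS, 84.6 and 79.2 CPM in 2D FNHCS, and 15.5 and 11.4 CPM in 2D FBS, and Vangl2 at 5.56 and 6.01, 15.3 and 11.1, and 2.99 and 1.95. Both were highest in 2D FNHCS and lowest in 2D FBS. Celsr1 kept the call only without 2D FNHCS replicate 2 (up to 0.0617 otherwise), and Vangl2 lost it in all 6 fits (up to 0.119). Among genes called against the mean but lying between or beside an end, Plaur, the urokinase receptor, was at 22.0 and 20.9 CPM in 3D FNHCS, 19.0 and 21.1 CPM in 2D FNHCS, and 518 and 423 CPM in 2D FBS, so its call reflects a single end.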
